A study of Homo sapiens with 8 samples.

Results

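The stability difference is the 18 h change of a transcript after TARBP2 knock-down minus its 18 h change in control cells, on log2 values. It was read from all 8 arrays of the series, on the 15954 probes that had a Detection p under 0.01 in all 4 arrays at 0 h. These are 33.7% of the 47321 probes on the array, and 13995 of them were also detected in all 4 arrays at 18 h. The probes were chosen only for being measurable at the start, so that a loss over 18 h could be seen.

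The cells were MDA-LM2, a line selected for lung metastasis from MDA-MB-231 breast cancer cells. There were 4 groups of 2 arrays. Control cells (siControl-1 and siControl-2) and TARBP2 knock-down cells were each sampled at 0 h, untreated, and after 18 h in 10 µM alpha-amanitin, which was started 48 h after transfection in every group. Knock-down array 1 at either time carried siTARBP2-1 and knock-down array 2 carried siTARBP2-2, so the knock-down groups hold 1 array of each siRNA. The sample titles name a control siRNA, while the series text speaks of mock transfection, and these were not told apart here. The titles number the control arrays siControl-1 and siControl-2 at both times, but do not say whether these are different siRNAs or separate cultures, so p-values measure the spread between these arrays, which may be technical. The array tables were used by probe identifier, with no table pairing probes with genes, so the levels of TARBP2 and of the cell line's defining markers were not analysed here.

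TARBP2 binds double-stranded RNA. It is best known for helping Dicer and Argonaute make and load microRNAs, and it has also been described as binding structured stretches in messenger RNAs and promoting their decay in metastatic breast cancer cells. Alpha-amanitin blocks RNA polymerase II, so that transcripts made by it are no longer replaced and decline at the pace of their decay. A transcript that TARBP2 helps to destroy would be lost more slowly after knock-down and would have a stability difference above 0. RNA polymerase I and the mitochondrial polymerase are not blocked at such doses and RNA polymerase III is less sensitive, so for their products an 18 h change need not be decay.

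Before any normalisation, the median signal of the probes detected at 0 h fell less over 18 h in knock-down cells than in control cells. Their median non-normalised signal in control cells was 634 and 642.7 at 0 h and 377.8 and 398.5 at 18 h. The knock-down arrays had medians of 589.9 and 628.6 at 0 h and 492.7 and 482.9 at 18 h. The arrays at 18 h did not overlap between the arms, and those at 0 h did not either, with control cells the higher at 0 h and the lower at 18 h. The mean of the medians at 18 h was 0.608 of that at 0 h in control cells and 0.801 in knock-down cells. The total signal of the same probes changed less. It went from 34108000 and 34519300 to 31259000 and 32700900 in control cells. In knock-down cells it went from 32311000 and 33974300 to 34158200 and 34029600. The ratios of the medians therefore do not measure how much RNA was lost. In these bulk RNA samples a lower level per cell and fewer cells with the transcript cannot be told apart.

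Detection gives a reading of the same difference that needs no scaling. Of the 15954 probes, 14532 and 14223 were still detected in the control arrays at 18 h, against 14781 and 14890 in the knock-down arrays. In control cells alone 274 probes were lost from both arrays at 18 h while detected in both knock-down arrays, and 30 probes showed the reverse. In both arms 843 probes were lost, and 13995 were kept in all 4 arrays at 18 h. At a Detection p under 0.05, a threshold chosen after the data had been seen, 18780 probes were detected at 0 h and the counts were 273 against 63. Of the 274 probes lost in control cells alone, limma's test called 94 higher and 0 lower for the stability difference, and of the 30 lost in knock-down cells alone it called 14 lower and 0 higher. The way these probes were picked fixes the direction of their difference, so these counts are a description. The lower signal of the control arrays at 18 h moves with these counts, and its part in them was not tested.

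Quantile normalisation sets every array to the same distribution and so removes any shared change in signal. After it, 1813 of the 15954 probes had a called stability difference (limma, Benjamini-Hochberg adjusted p under 0.05). That is 11.4%, beside 11.1% of all 18664 probes fitted. Of the called probes 985 were higher in knock-down cells (6.17% of the probes detected at 0 h, against 6.15% of all fitted) and 828 were lower (5.19% against 4.92%). The changes were modest. The median fold was 1.55 among probes called higher and 0.671 among those called lower, 86 were over 2-fold higher and 47 over 2-fold lower, and no called probe lay within 1.25-fold. Over all probes detected at 0 h the median difference was 0.0053, the SD between probes 0.344 and the median SE of a probe's difference 0.124, all on the log2 scale. At an unadjusted p under 0.05 there were 4995 probes. With replicate number, and so siRNA, as a block within each arm, limma called 0 probes, at a lowest adjusted p of 0.0547. The counts above, and those below unless stated, are from the fit without this block.

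The number of calls rested on single arrays. It fell to 215 without knock-down array 1 at 0 h and to 39 without array 2, to 123 and 166 without either knock-down array at 18 h, and to 39 without either control array at 0 h. It was 1278 and 1153 without control array 1 and 2 at 18 h. Without any one array 31 probes stayed called, 21 higher and 10 lower, and all 1813 kept their sign in all 8 of these fits. Such a fit assumes that the lone array of a group varies like the others.

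The direction of the calls depended on scaling. With each array scaled by its median instead, 92.3% of the calls were higher, where quantile normalisation gave 54.3%. That median was taken over all 47321 probes, of which 27528 were not detected on any array. It therefore lies at the level of undetected probes, and this scaling aligns the arrays there rather than at the detected transcripts. The calls were then 4320 higher and 361 lower, and the median over probes had moved by 0.216 (log2). Of the 985 probes called higher after quantile normalisation, 983 were called higher under median scaling as well, but of the 828 called lower 277 were called lower there, and 2 changed sign. On the authors' own normalised values, as deposited, 1298 were called higher and 1178 lower, which included 963 and 813 of those named above. The directions below are therefore relative to the other transcripts on the array.

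On these normalised values a fall over 18 h is a loss relative to the other probes, and a relative rise does not exclude decay. The median change in control cells was 0.0024 after quantile normalisation and -0.503 with median scaling (log2). In knock-down cells it was -0.0048 and -0.258. In control cells 6378 of the probes fell and 6367 rose relative to the others, and in knock-down cells 6308 fell and 6222 rose (limma adjusted p under 0.05). The control arm's falls took in 36.5% of all fitted probes and its rises 41.1%, against 35.8% and 40.3% in the knock-down arm. The largest class, 5583 probes, fell in both arms, with a median change of -1.06 in control cells and -1.02 in knock-down cells (log2). Of these, 383 were called higher after knock-down, which is slower relative loss, and 247 lower, which is faster relative loss (60.8% higher). The share called in this class was 11.3%, beside 11.4% of all the probes detected at 0 h. Another 5456 probes rose in both arms, and 8.89% of them were called, 251 higher and 234 lower (51.8% higher). These became 544 and 55 with median scaling, 31 and 19 or 1 and 2 without knock-down array 1 or 2 at 0 h, 9 and 13 or 10 and 9 without either at 18 h, 1 and 4 or 1 and 2 without control array 1 or 2 at 0 h, and 150 and 123 or 114 and 128 without either at 18 h. Where the probe fell by over 2-fold in both arms (2445 probes), 172 were called higher and 78 lower. Together these are a smaller share than the 11.4% called of all the probes detected at 0 h. Without knock-down array 1 or 2 at 0 h, the calls among probes that fell in both arms were 33 higher and 27 lower, or 3 and 7. They were 23 and 19, or 23 and 34, without knock-down array 1 or 2 at 18 h, and 5 and 6 without either control array at 0 h. Without control array 1 or 2 at 18 h the lower calls were 154 or 142. With median scaling, of the probes called to fall in both arms under that scaling 2206 were higher and 136 lower.

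Some called probes crossed from relative loss to relative gain. The arms were called in opposite directions for 151 of the 1813 probes: 75 fell in control cells and rose in knock-down cells, and 76 did the reverse. A further 138 called probes fell in control cells with no called change in knock-down cells, and 117 fell in knock-down cells with none called in control cells. Calls on probes that rose in 1 arm only came to 154 for control cells, all lower, and 138 for knock-down cells, all higher.

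Set out by the mean change over both arms, the calls leaned to higher among probes that declined by over 2-fold and to lower among those with small rises, and this was not tested. Among the 2255 probes that declined 2- to 4-fold on average (mean change -2 to -1 on the log2 scale) the median difference was 0.052, with 206 called higher and 105 lower. Among the 557 with a mean change between -3 and -2 it was 0.061, with 53 higher and 30 lower. In the 103 probes under -3 it was 0.033, with 6 higher and 5 lower. Among the 2727 probes with a mean change of 0.5 to 1 it was -0.033, with 123 higher and 149 lower. Near the middle of the range the medians were 0.021 (mean change -1 to -0.5), 0.0016 (-0.5 to 0) and -0.011 (0 to 0.5), and above 1 the median was 0.026, with 134 called higher and 86 lower. From the lowest bin to the highest, the share called was 10.7%, 14.9%, 13.8%, 12.5%, 9.89%, 10.55%, 9.97% and 12.1%. This stands beside 11.4% of all the probes detected at 0 h. With median scaling every bin lay above 0, from 0.173 to 0.279, while cyclic loess gave -0.051 to 0.055 and the authors' normalised values -0.031 to 0.055.

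Calls were spread over the range of signal. When the probes were split into 5 equal classes by their mean level at 0 h, the share called was 10.2% in the dimmest class, 13.1%, 13.4% and 12.9% in the middle classes and 7.30% in the brightest. Of the called differences over 2-fold, 45 of the 86 higher and 12 of the 47 lower lay in the dimmest class, and 1 and 0 in the brightest. The median SE was 0.179 in the dimmest class and 0.107 in the brightest (log2).

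Most of a called difference lay at 18 h. For the probes called higher, the median knock-down minus control difference was -0.13 at 0 h and 0.52 at 18 h (log2). For those called lower it was 0.14 at 0 h and -0.45 at 18 h. Knock-down cells started below control cells for 757 of the 985 probes called higher (76.9%) and above them for 633 of the 828 called lower (76.4%), while 49.9% of all the probes started below. The values at 0 h are part of the stability difference, so they are no independent measure of it, and how much of the opposite signs comes from that was not tested. Over 2-fold differences between the arms were held by 9 of the 15954 probes at 0 h and by 133 at 18 h.

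Both siRNAs gave differences of like size on the called probes. Against the mean of the control changes, the median of the probes called higher was 0.62 for siTARBP2-1 and 0.63 for siTARBP2-2, and of those called lower -0.57 and -0.59 (log2). Calls require the arrays of a group to agree, so this is a description of the chosen probes. Over 2-fold on the mean of both siRNAs, 61 of the 86 probes called higher and 29 of the 47 called lower passed 2-fold with each siRNA singly. With 18 h and 0 h arrays matched by number, both knock-down changes lay above both control changes for 5018 of the probes and below for 4843, 61.8% in all, beside 59.9% of all fitted probes. All 1813 called probes were among them.

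A few probes show what the numbers are made of. They are the 2 probes farthest in each direction among called probes that were detected in all 8 arrays and did not overlap between the arms. They are given by probe identifier, since no table pairing probes with genes was used here. On ILMN_1746396 the control arrays read 8.84 and 9.01 at 0 h and 7.24 and 7.22 at 18 h, and the knock-down arrays 8.12 and 7.90 at 0 h and 8.73 and 8.64 at 18 h (log2 normalised signal). Relative to the other probes, this one fell in control cells and rose in knock-down cells, on both siRNAs. The arms did not overlap at either time. The signals before normalisation moved in the same directions. They went from 621.7 and 697.5 to 162 and 168.4 in control cells, and from 375.2 and 350.3 to 450.4 and 420.6 in knock-down cells. Whether the amount of this transcript per cell rose was not measured. The stability difference of ILMN_1746396 was 2.37 ± 0.14 (log2, SE, n = 2 arrays a group; limma adjusted p = 0.00399), or 5.18-fold.

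ILMN_1702585 read 7.40 and 7.50 at 0 h and 6.83 and 6.36 at 18 h in control cells, against 6.61 and 6.80, then 7.82 and 8.0, in knock-down cells. It too fell in control cells and rose after knock-down, with no overlap at either time. Its stability difference was 2.06 ± 0.22 (log2, SE, n = 2 arrays a group; limma adjusted p = 0.0119). It was 1.42 without background correction and 1.51 on the authors' normalised values (log2). Its non-normalised signal was low in control cells at 18 h, at 140 and 128.2 (Detection p 0.0026 and 0.00649, where 0.01 was the limit). The adjusted p was 0.0524 without knock-down array 2 at 0 h and 0.0542 and 0.0549 without control array 1 and 2 at 0 h (limma).

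In the other direction, ILMN_1700202 went from 8.43 and 8.46 to 7.33 and 7.48 in control cells and from 8.52 and 8.64 to 6.09 and 6.21 in knock-down cells. It fell in both arms and fell further after knock-down, from starting levels that differed little. Its stability difference was -1.39 ± 0.12 (log2, SE, n = 2 arrays a group; limma adjusted p = 0.00702). On median-scaled values it was -0.92, and without background correction -0.91 (log2). The non-normalised signal of this probe was low in knock-down cells at 18 h, at 132.8 and 135 (Detection p 0.00779 and 0.0026). ILMN_3310351 went from 10.43 and 10.46 to 13.36 and 13.40 in control cells and from 11.42 and 11.20 to 12.83 and 12.89 in knock-down cells. It rose in both arms, less so after knock-down, so its difference of -1.39 ± 0.12 (log2, SE, n = 2 arrays a group; limma adjusted p = 0.00702) is not a faster loss.

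Gene names enter only through the authors' deposited table. It lists a log2 ratio of transcript stability, knock-down over control, for 39745 transcript accessions. No source used here states its formula, and its values could not be rebuilt from the arrays, where means of logs, logs of means and ratios per replicate did not give them. There is 1 value per accession with no replicate, and the ratios were made by the authors from this experiment. In the authors' deposited table every ratio above 1.25-fold, 8.45% of the accessions, is classed as stabilized, and 6.31% lie below 0.8-fold, the inverse. Matched to RefSeq names, the authors' deposited table covers 19465 genes, of which 8.76% have a mean ratio above 1.25-fold and 5.39% one below 0.8-fold. Genes that a breast cell line is not known to transcribe give a sense of what such ratios are worth. Of 378 olfactory receptor genes, 19 (5.03%) are above 1.25-fold and 17 (4.50%) below 0.8-fold in the authors' deposited table. On the authors' normalised array values, of the 27528 probes that were not detected on any array 5.22% lay above 1.25-fold and 5.76% below 0.8-fold, while of the probes detected at 0 h 11.8% lay above and 10.6% below. The table gives no detection, so for a single gene a ratio near 1.25-fold cannot be told apart from these.

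The gene for TARBP2 itself has ratios of 0.92-fold and 1.09-fold on its 2 accessions in the authors' deposited table, neither classed as stabilized. These are ratios of stability and do not measure the knock-down. For APP, the amyloid precursor protein gene, the authors' deposited table classes 1 of 2 accessions as stabilized, at 1.34-fold, and lists the other at 1.10-fold. ZNF395, a zinc-finger gene, stands at 1.35-fold in the authors' deposited table. Both were named because published work on TARBP2 in these cells names them, so their values are not independent support.

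The counts of each list below stand beside 8.76% of all genes above 1.25-fold and 5.39% below 0.8-fold in the authors' deposited table. No list was tested against these shares. Regulators of splicing hold the highest ratio and several others near the top. Of 32 SR and hnRNP genes the authors' deposited table puts 6 above 1.25-fold and 1 below 0.8-fold, at a median log2 ratio of 0.12 against 0.026 over all genes. HNRNPL is, by the authors' deposited table, at 3.41-fold, TRA2A at 2.55-fold, HNRNPH1 at 1.80-fold and HNRNPA1 at 1.53-fold. All 4 encode proteins that bind pre-mRNA and choose splice sites. HNRNPA1 has many processed copies in the genome, and one of them, HNRNPA1P10, is at 1.79-fold in the authors' deposited table, so the source of either value is uncertain. SRSF7, an SR protein gene, lies below the threshold in the authors' deposited table, at 0.746-fold. ALYREF, which couples mRNA to nuclear export, is at 1.98-fold in the authors' deposited table.

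Genes of mitosis had the highest median of all the lists. Of 40 such genes the authors' deposited table puts 19 (47.5%) above 1.25-fold and 1 below 0.8-fold, and the median log2 ratio is 0.30. In the authors' deposited table CDC25B, the phosphatase that activates the mitotic cyclin-dependent kinase, is at 1.67-fold, and CDCA8, which works with Aurora B at the centromere, at 1.59-fold. In the authors' deposited table NUF2 of the kinetochore is at 1.43-fold (the mean of 1.24-fold and 1.65-fold). CENPA, the centromeric histone, is at 1.41-fold and the kinesin KIF2C at 1.40-fold in the authors' deposited table. BUB1B, a checkpoint kinase, stands in the authors' deposited table at 0.724-fold. Outside the list, SPAG5 of the mitotic spindle (1.97-fold) and the centrosomal genes CNTRL (1.98-fold) and CEP68 (1.98-fold) also rank in the top 12 of the authors' deposited table. For DNA replication the authors' deposited table shows 3 of 48 genes above and 2 below, with a median log2 ratio of -0.001. The 2 below are far down: E2F1, a transcription factor of S phase entry, is at 0.527-fold and PRIM2, a primase subunit, at 0.547-fold, as the authors' deposited table has it.

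The machinery of transcription and of mRNA decay also had members on both sides. For RNA polymerase II and its general factors, the authors' deposited table shows 11 of 33 genes above and 3 below (median log2 ratio 0.18). In the authors' deposited table ERCC2 and ERCC3, the helicases of TFIIH, are at 1.34-fold and 1.29-fold, while GTF2H5, the smallest subunit of the same complex, is at 0.727-fold. For mRNA decay factors the authors' deposited table shows 9 of 54 above and 3 below (median log2 ratio 0.065). LSM4 of the decapping-associated ring is, by the authors' deposited table, at 1.5-fold, the helicase DDX6 at 1.49-fold, CNOT8 of the deadenylase complex at 1.48-fold and TOB1, which recruits that complex, at 1.41-fold. By the authors' deposited table the exonuclease XRN1 is at 0.743-fold and the exosome subunit EXOSC3 at 0.700-fold. Of 26 TARBP2 partners and small RNA factors 1 is above 1.25-fold, the helicase gene MOV10 at 1.28-fold, and none below 0.8-fold in the authors' deposited table.

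Transcripts known for short lives were spread widely. Among 51 immediate-early and AU-rich transcripts, the authors' deposited table holds 9 above and 8 below, so that 33.3% of the list lies past a threshold. The shares are 17.6% above and 15.7% below, beside 8.76% and 5.39% over all genes of the authors' deposited table. The cytokine IL1A is, by the authors' deposited table, at 1.86-fold, the phosphatase DUSP2 at 1.49-fold and ZFP36L2, an AU-rich element binding protein, at 1.35-fold. CSF2, which encodes GM-CSF, is in the authors' deposited table the lowest of all genes at 0.342-fold, and DUSP1 is at 0.659-fold, the cytokine LIF at 0.735-fold and CXCL8 at 0.756-fold. Of 24 genes of the integrated stress response 5 are above and 0 below, led by the transcription factor DDIT3 at 1.77-fold and the pseudokinase TRIB3 at 1.44-fold in the authors' deposited table. Wnt and adherens junction genes number 33 in the authors' deposited table, 4 of them above and 4 below. Beside CTNNB1, which encodes beta-catenin (3.06-fold), the kinase GSK3B is at 1.39-fold and its paralog GSK3A at 0.694-fold in the authors' deposited table.

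Of the lists, small RNAs had the lowest median and the most genes below the threshold. Oxidative phosphorylation (4 above and 7 below of 70) and ribosomal proteins (5 and 5 of 75) also had medians below 0 in the authors' deposited table, at -0.049 and -0.030. Of 22 small nuclear and polymerase III RNAs, 0 are above 1.25-fold and 11 below 0.8-fold in the authors' deposited table (median log2 ratio -0.32). In the authors' deposited table the minor spliceosomal RNA RNU11 is at 0.607-fold and RNY4, a Y RNA, at 0.612-fold. For the polymerase III products among them, the ratio need not reflect decay. Of 33 cholesterol genes the authors' deposited table holds 1 above and 5 below, among them the cholesterol exporter ABCA1 at 0.448-fold. Of 27 genes linked to lung metastasis of breast cancer, 1 is above and 6 are below in the authors' deposited table. The 1 above is ZNF395, which published work on TARBP2 in these cells names, so it is not independent support. Those below include the collagenase MMP1 at 0.680-fold, SPARC at 0.725-fold and ANGPTL4 at 0.749-fold in the authors' deposited table. ANGPTL4 is below 0.8-fold on both of its accessions in the authors' deposited table.

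The remaining lists are given by their counts. Of 30 proteasome subunits the authors' deposited table puts 2 above and 0 below, at a median log2 ratio of 0.12, and of 26 p53 targets 3 are above and 0 below, at 0.010. The targets above include the cell cycle inhibitor CDKN1A at 1.30-fold (the mean of 0.983-fold and 1.71-fold) in the authors' deposited table. They also include MDM2, the ubiquitin ligase of p53, at 1.29-fold in the authors' deposited table. For glycolysis and hypoxia the authors' deposited table shows 3 of 33 above and 3 below, and for interferon-stimulated genes 1 of 47 above and 4 below. Among 28 let-7 targets it shows 3 above and 2 below, among 20 snoRNA host and long non-coding RNAs 1 above and 4 below, and among 16 histone genes 0 on either side (the authors' deposited table).

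Still unnamed from the top 12 of the authors' deposited table are SFXN1, a mitochondrial serine transporter (2.88-fold), IRF2BPL (2.81-fold), EOLA1 (2.16-fold), NAMPT, the rate-limiting enzyme of NAD salvage (2.07-fold), and NOMO3 (1.95-fold). NOMO3 has near-identical neighbours, so its assignment is uncertain. Among the 12 lowest of the authors' deposited table are FLG, which encodes filaggrin of the skin barrier (0.530-fold), ALOX5AP of leukotriene synthesis (0.525-fold), ALB, which encodes serum albumin (0.521-fold), LYRM2 (0.516-fold), TMEM135 (0.514-fold), TMEM106B of the lysosome (0.544-fold), RPL10L (0.489-fold), RNU6-1 (0.407-fold) and the microRNA gene MIR574 (0.522-fold). Filaggrin and albumin are products of skin and liver, and whether their probes were above background cannot be read from the table. Another microRNA gene, MIR586, ranks 18 from the top of the authors' deposited table, at 1.87-fold.

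The mature microRNAs of these genes are shown because TARBP2 acts with Dicer on such hairpins, with the seed (bases 2 to 8) in capitals, from RefSeq (GRCh38.p14). MIR574 lies on chromosome 4, its 5p arm at chr4:38868056-38868078 and its 3p arm at chr4:38868092-38868113 (plus strand), and MIR586 at chr6:45197734-45197755 (minus strand).
hsa-miR-574-5p: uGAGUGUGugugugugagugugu
hsa-miR-574-3p: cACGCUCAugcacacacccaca
hsa-miR-586: uAUGCAUUguauuuuuaggucc
No seed is shared between them. The ratio belongs to the precursor accession in the authors' deposited table and says nothing of the mature microRNA.

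Genes read on more than 1 accession give the only repeat inside the table, although accessions of a gene may be different isoforms. For the 2500 genes with several accessions the median range between them is 0.218 on the log2 scale in the authors' deposited table, and for 10% of them it is over 0.53. On every accession 33 of these genes are above 1.25-fold and 13 below 0.8-fold, while 26 have accessions on both sides in the authors' deposited table. Among the highest of the 33 are ZMYND8, a chromatin reader (log2 ratios 0.60 and 0.81), ANKRD17 (0.60 and 0.70), CAPRIN2 (0.50 and 0.74) and PARP2 of DNA repair (0.53 and 0.58) in the authors' deposited table. The mRNA export receptor gene NXF1 (0.50 and 0.54) and BCL2L11, which encodes the death promoter BIM (0.34 and 0.35), are also among them in the authors' deposited table. The lowest of the 13 is FST, which encodes the activin antagonist follistatin (log2 ratios -0.96 and -0.51), followed by SRI (-0.66 and -0.47), CRCP (-0.55 and -0.53), IFRD1 (-0.62 and -0.41) and ACSS2, an acetyl-CoA synthetase (-0.55 and -0.43), in the authors' deposited table.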

How the data were processed

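Total RNA from 8 MDA-LM2 samples was measured on single-colour Illumina arrays, 2 per group, grouped by sample title. The authors deposited non-normalised signal intensity and a detection p-value per probe, per the file headers, and each Detection column was read as belonging to the signal column on its left. They also deposited an intensity table normalised between arrays; the submitters' processing notes name lumi, without version or settings. A table of log2 ratios per accession with a class (other column) was deposited by the authors, per its header, with no formula.

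Signals were background-corrected, given an offset of 16, quantile normalised and log2 transformed with neqc (limma 3.58.1, R 4.3.3). Probes with Detection p under 0.01 in at least 2 arrays (18664) were fitted with 1 coefficient per group and eBayes (4 residual and 2.90 prior degrees of freedom), 2-sided, with Benjamini-Hochberg adjustment over all of them, and counts were taken over the 15954 probes detected at 0 h. Signals shared between replicate arrays made up at most 0.33% of probes, and replicates correlated at r = 0.996 to 0.998. Precision is limited by the few arrays. In simulated data of 18664 probes with 200 changed, 0% of changes of 0.5, 87% of 1 and 99.5% of 2 (log2) were recovered. These rates do not carry over to the real data, where 2067 of the fitted probes were called. The smallest called difference there was 0.354 (log2).

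Of the accessions, 22408 matched 1 symbol (RefSeq, GRCh38.p14, names only), and accessions of a gene were averaged (pandas 2.3.3). The probes, gene lists and tests were chosen with earlier results of these data known. With no probe names, the rule for named genes left 2 probes each way, TARBP2, APP and ZNF395, and names from the authors' table. From that table the 12 highest and lowest genes, examples from the lists, families, microRNA genes and genes with several accessions were chosen after their values were seen. Fits over lists, and scaling to mitochondrial and polymerase III transcripts, were not run, since probes carry no names. Values of a few genes are not reported here.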

Additional observations from a re-analysis of the deposited data

Results flagged for a closer look

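Limma's test of the stability difference itself called each of the 4 probes shown above in the fit without a replicate block. With replicate number as a block within each arm their adjusted p was 0.0547 to 0.0553 (limma). The differences were 2.37 for ILMN_1746396, 2.06 for ILMN_1702585, -1.39 for ILMN_1700202 and -1.39 for ILMN_3310351 (log2, knock-down minus control). Each was seen on both siRNAs, but the rule that picked these probes required this, so it is no support. For the first pair the arms were called in opposite directions, as they were for 151 of the 1813 called probes. With 2 arrays a group, no array could be checked for standing apart from its group.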

How the results depend on the processing

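The count of called probes (1813, 985 higher and 828 lower) kept within 1.5 times under cyclic loess, the authors' normalised values, a fit of these probes alone and detection in all 8 arrays; without background correction the lower calls rose to 1290. With median scaling it was 4681 (4320 higher, 361 lower), with all 47321 probes fitted 299 (177 and 122) and with trended, robust eBayes 3385 (1739 and 1646). Leaving out 1 array gave 39 to 1278 calls (25 to 777 higher, 12 to 501 lower). Among probes that fell in both arms, the 383 higher and 247 lower calls became 2206 and 136 with median scaling, 62 and 40 with all probes fitted, 626 and 469 with trended eBayes, 172 and 78 where both falls passed 2-fold, and 3 to 351 and 6 to 154 without 1 array. The cause of these moves was not tested, beyond the fewer arrays or the different probes of the fit.

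The replicate block leaves the differences as they are and changes their error. With replicate number as a block within each arm, which leaves 2 residual degrees of freedom, 0 probes were called by limma (0 higher, 0 lower, 0 among those that fell in both arms), the lowest adjusted p was 0.0547 (0.0547 to 0.0553 for the 4 probes shown) and 4357 had an unadjusted p under 0.05. With the number as a block across all arrays 1115 were called (622 higher, 493 lower; 241 and 146 of those that fell in both arms). Deviations of same-numbered arrays correlated at -0.0026 (control, 0 h and 18 h), -0.0063 (knock-down), 0.029 (arms at 0 h) and -0.019 (arms at 18 h) across probes. The numbers, siRNA included, were for this reason not treated as pairs. A correlation across probes cannot show whether a single probe carries an offset of its siRNA. The 18 h changes within an arm kept within 1.5 times throughout (11541 to 12665 calls in knock-down cells and 11729 to 12603 in control cells without 1 array). With the first accession of each gene in place of the mean, chosen after seeing the data, 1827 genes of the authors' deposited table were above 1.25-fold (1705 with the mean) and 1139 below 0.8-fold (1049).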

Other observations

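Counts for other gene families of the authors' deposited table stand beside 8.76% above 1.25-fold and 5.39% below 0.8-fold over all its genes, with no test of any difference. Of 54 DEAD and DEAH box helicase genes, whose products unwind RNA, the authors' deposited table puts 8 (14.8%) above 1.25-fold and 1 below 0.8-fold, with a median log2 ratio of 0.145. Of 38 kinesin genes the authors' deposited table puts 10 (26.3%) above and 0 below, at a median of 0.121; kinesins of mitosis are also in the list of mitotic genes. Of 276 small nucleolar RNAs, the authors' deposited table puts 20 (7.25%) above and 38 (13.8%) below, and of 565 microRNA genes 32 (5.66%) are above and 49 (8.67%) below. Other families in the authors' deposited table are SLC transporters (8.07% above and 5.73% below of 384), tRNA synthetases (9.09% and 3.03% of 33) and ZNF zinc-finger genes (10.7% and 3.84% of 469), and by symbol it holds ribosomal protein genes at 5.75% and 8.05% of 87 and histone genes at 4.82% and 7.23% of 83. Of 24 basal and mesenchymal markers, the kind this line is known for, the authors' deposited table has 3 above and 4 below (median log2 ratio -0.040), from SPARC at 0.725-fold to the tubulin gene TUBB6 at 1.33-fold. Among 22 luminal epithelial markers the authors' deposited table has 4 above and 1 below (median 0.025), with the transcription factor gene ELF3 at 1.77-fold, the claudin gene CLDN7 at 1.49-fold and the trefoil factor gene TFF3 at 0.755-fold. Of 44 markers of leukocytes, endothelium and fibroblasts, whose expression in this line was not checked, the authors' deposited table has 1 above (CD3G at 1.33-fold) and 1 below (CSF1R at 0.644-fold).

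Gene span made little difference to the share above 1.25-fold among protein-coding genes, which was 7.91% in the class of shortest genes and 9.0% in the class of longest, of 5 equal classes, in the authors' deposited table. By GC content of the promoter (250 bases before to 50 after the start, RefSeq, known for 14383 of 17948 protein-coding genes), the share above was 6.17% in the class with a median of 44.3% GC and 10.5% in the class with 76.3% GC, in the authors' deposited table. The SD of the ratios was 0.206 and 0.224 in those classes, and the table gives no levels with which to compare them.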
